A study of Homo sapiens with 4 samples.

Results

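A group of 10 genes that help set the identity of epithelial cells through transcription or splicing was followed in BEAS-2B cells. They were chosen by gene symbol: ELF3, EHF, TP63, SOX2, GRHL1, GRHL2, GRHL3, OVOL1, ESRP1 and ESRP2, out of the 24424 symbols in the count tables. BEAS-2B is a human bronchial epithelial line that was immortalised for culture. RNA was sequenced from 4 groups, each a single library of wild-type genotype grown in bronchial epithelial medium: untreated cells (control), cells given LPS for 2 h (LPS), and cells transfected for 24 h before the 2 h of LPS, by their labels either with siRNA against occludin (siOCLN+LPS) or with wild-type occludin (labelled wtOCLN+LPS). The labels of the control and LPS libraries mention no transfection. LPS is bacterial lipopolysaccharide, a ligand of the receptor TLR4, and occludin is a membrane protein of tight junctions.

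As background, epithelial cells keep their character through transcription factors of several families. ELF3 and EHF are ETS-family factors restricted to epithelia, TP63 encodes p63, the master factor of basal cells in stratified and airway epithelium, and SOX2 is a factor of the airway lineage. The Grainyhead-like factors GRHL1, GRHL2 and GRHL3 act on junction and barrier genes, and OVOL1 is a zinc finger factor that opposes mesenchymal transition. ESRP1 and ESRP2 are RNA-binding proteins that direct the epithelial pattern of alternative splicing.

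The libraries held 13867494 to 17500031 counts, and 1 count corresponded to 0.0721 to 0.0571 CPM (counts per 1000000 counts of the library). OCLN, the targeted gene, stood at 55.4 CPM in control, 50.4 CPM in LPS, 21.0 CPM in siOCLN+LPS and 29.7 CPM in the wtOCLN+LPS-labelled library. The last value goes against its label. Whether RNA of a transfected construct would be counted under OCLN, or whether labels were exchanged, was not tested, so no direction read from that library is tied here to the occludin level. The bronchial epithelial label was met by 11 of 12 markers at 1 CPM or more in at least 1 library, with a summed level of 1377 to 2594 CPM. Most of that sum came from keratins, in LPS KRT17 at 588 CPM, KRT8 at 372 CPM and KRT18 at 254 CPM. KRT15 stayed below 1 CPM and KRT14 and EPCAM stayed low, with KRT14 past 1 CPM only in control (17 counts). The ciliated factor FOXJ1 and the club cell protein SCGB1A1 were at 0 counts in all 4 libraries, as was the T cell marker CD3E. Single libraries allow no replicate check and no test. Each ratio below compares libraries, and its 95% interval (exact, Clopper-Pearson on the 2 counts) covers counting error only. In bulk RNA, more cells of a kind and more RNA per cell cannot be told apart.

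The sequence shown here belongs to the regulator with the widest range, ELF3. RefSeq promoter windows were found for 6 of the 10 genes (ELF3, EHF, TP63, SOX2, GRHL1 and GRHL3). The 250 bases before the ELF3 start lie at chr1:202010337-202010586 on the plus strand of GRCh38.p14. Capitals mark the match to a kappaB motif, a form of the binding sequence of NF-kB. Other forms of that sequence were not searched.

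ELF3 promoter: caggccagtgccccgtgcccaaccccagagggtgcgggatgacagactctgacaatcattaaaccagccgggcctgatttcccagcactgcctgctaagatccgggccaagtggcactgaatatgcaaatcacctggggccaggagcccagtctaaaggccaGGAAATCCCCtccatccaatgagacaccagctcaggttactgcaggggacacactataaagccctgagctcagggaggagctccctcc

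The motif was searched on both strands as GGG, any 2 bases and then TTTCC. It lay 88 to 79 bases before the ELF3 start, and no window of the other 5 genes held it. Of 35116 RefSeq windows of this length, 1.73% held it. The ELF3 window also held CACCTG (an E-box letter string read by ZEB and SNAI repressors; in 17.5% of windows) and TATAAA (in 10.7% of windows). CACCTG was also found in GRHL3. The interferon response core, GAAA on each side of any 2 bases (3.02% of windows), and the Grainyhead string AACNNGTT (3% of windows) were found in none of the 6 genes. These matches describe letters in a window and not bound sites, and the TP63 window covers only 1 of that gene's starts.

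Of the 10 regulators, 5 reached 1 CPM in at least 1 library, namely ELF3, EHF, TP63, GRHL1 and ESRP2. The other 5 were near or at 0. Counts of GRHL3 were 8 for control, 7 for LPS, 10 for siOCLN+LPS and 7 for the wtOCLN+LPS-labelled library, or 0.400 to 0.572 CPM. ESRP1 had 0, 6, 2 and 0 counts in the same order, GRHL2 had 0, 0, 2 and 1, OVOL1 had 1, 0, 0 and 1, and SOX2 had 0, 0, 0 and 2. SOX2 lies within the long noncoding gene SOX2-OT, itself at 1, 1, 5 and 2 counts, and how reads of the pair were assigned is not given. A count of 0 allows a level of up to 0.171 to 0.216 CPM (3 counts of the library total). ESRP1 in LPS, at 0.433 CPM, was above that limit for the control and wtOCLN+LPS-labelled libraries, but rested on 6 counts. For the other 4 genes, differences between libraries were not detectable at this depth. The Grainyhead-like family was thus represented mainly by GRHL1 and the ESRP pair mainly by ESRP2.

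**Figure D1:**
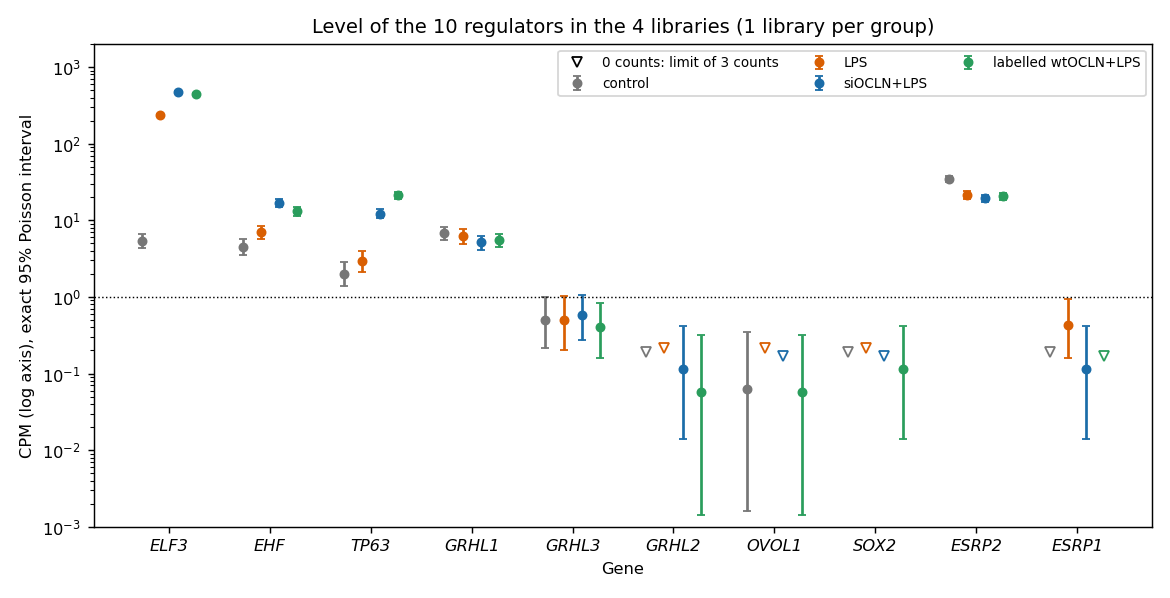
Level of each regulator in CPM (log axis) in the 4 libraries; points are single libraries, bars exact 95% Poisson intervals, open triangles the level of 3 counts where the count was 0, and the dotted line 1 CPM. ELF3 spans 5.41 to 470.2 CPM, EHF and TP63 are highest in the transfected libraries, GRHL1 is level, ESRP2 is highest in control, and 5 genes lie below 1 CPM.

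Levels of different genes can be set side by side only per length, here as CPM per kilobase of the longest protein-coding transcript in GENCODE 29. On that scale ESRP2 was the highest regulator in control at 9.16, followed by GRHL1 at 1.91, EHF at 1.42, ELF3 at 1.08 and TP63 at 0.410. In LPS the first place was held by ELF3 at 46.9, before ESRP2 at 5.67, EHF at 2.22, GRHL1 at 1.74 and TP63 at 0.602. ELF3 also came first in siOCLN+LPS at 94.2 and in the wtOCLN+LPS-labelled library at 89.4. With the median in place of the longest transcript length, ESRP2 (17.5) stayed first in control and ELF3 first in the other 3 libraries, but EHF (4.85) came before GRHL1 (3.61) in control. The order of EHF, ESRP2 and TP63 in the wtOCLN+LPS-labelled library also depended on the length used.

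The LPS and control libraries differ in their labels by 2 h of LPS alone. One of the 5 measured regulators, ELF3, was at least 2-fold higher on the log2(CPM + 1) scale and none was at least 2-fold lower. Over all 13551 genes tested (1 CPM or more in either library), 1.6% were at least 2-fold higher and 0.207% lower. ELF3 had 86 counts in control, or 5.41 CPM, and 3250 counts in LPS, or 234.4 CPM. It was thus higher by 43.3-fold (35.0 to 54.3), and its log2 ratio of 5.20 was rank 7 of 13551 from the highest.

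EHF, the other ETS factor of the 10, stood at 4.47 CPM without and 6.99 CPM with LPS. Its ratio was 1.57 (1.14 to 2.16), above 1 by more than counting error but under the 2-fold threshold. TP63 was at 2.01 CPM (32 counts) and 2.96 CPM (41 counts), a ratio of 1.47 (0.902 to 2.41) whose interval includes 1. GRHL1 was at 6.80 and 6.20 CPM, with a ratio of 0.912 (0.679 to 1.22).

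ESRP2 lay on the other side. Its 552 counts in control were 34.7 CPM and its 298 counts in LPS 21.5 CPM, a level 1.62-fold lower (1.40 to 1.87). This is short of 2-fold, yet its log2 ratio of -0.67 was rank 231 of 13551 from the lowest, and it was -0.58 with TMM scaling, which sets library scale after trimming the most variable genes. ESRP2 did not return towards the control level in either transfected library, which had 19.4 CPM for siOCLN+LPS and 20.7 CPM for the wtOCLN+LPS-labelled library. Control is therefore the single library in which ESRP2 stands above the other 3, whose Poisson intervals overlap each other (17.4 to 24.1 CPM in all).

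**Figure D2:**
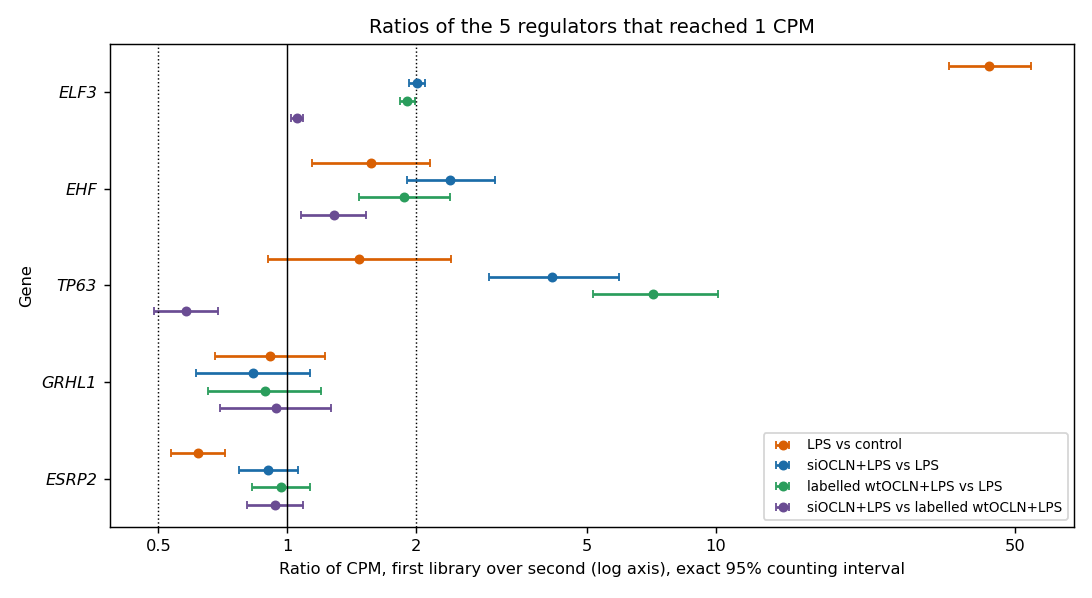
Ratio of CPM (log axis) of the first over the second library for the 5 regulators that reached 1 CPM, with exact 95% counting intervals; the solid line is 1 and the dotted lines 2-fold. ELF3 reaches 43.3 for LPS against control, TP63 is 4.14- and 7.15-fold higher in the transfected libraries against LPS, and GRHL1 intervals all include 1.

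Against both transfected libraries the LPS library serves as reference, so these comparisons share it and are given side by side. In siOCLN+LPS, 3 of 5 measured regulators (ELF3, EHF and TP63) were at least 2-fold higher than in LPS and none lower, where 3.32% of 13505 genes tested were higher and 3.92% lower. In the wtOCLN+LPS-labelled library, 1 of 5 (TP63) was at least 2-fold higher and none lower, where 3.32% of 13493 genes were higher and 3.69% lower. With TMM scaling the shares of all genes were 4.48% higher and 2.81% lower, and 4.59% and 2.48%. The median log2 ratio of all genes was -0.13 and -0.15 with library totals and 0.01 in both with TMM.

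TP63 showed the largest ratios of the 5. It rested on 41 counts for LPS, 214 for siOCLN+LPS and 370 for the wtOCLN+LPS-labelled library, or 2.96, 12.2 and 21.1 CPM. Its level was 4.14 times that of LPS in siOCLN+LPS (2.95 to 5.94) and 7.15 times in the wtOCLN+LPS-labelled library (5.17 to 10.1). Both transfected libraries lay above the LPS and control libraries, with the wtOCLN+LPS-labelled library the highest. The count does not separate the p63 isoforms made from its alternative promoters.

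ELF3 was higher again in the transfected libraries, at 470.2 CPM in siOCLN+LPS and 446.5 CPM in the wtOCLN+LPS-labelled library. The ratios to LPS were 2.01 (1.93 to 2.09) and 1.91 (1.83 to 1.99). One lies just inside and the other just outside the 2-fold threshold, and with TMM scaling both lay inside, at log2 ratios of 1.15 and 1.09. Against control, ELF3 was 86.9-fold (70.3 to 108.7) and 82.5-fold (66.7 to 103.2) higher, rank 4 from the highest in both comparisons.

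EHF was at 16.8 CPM in siOCLN+LPS and 13.1 CPM in the wtOCLN+LPS-labelled library, against 6.99 CPM in LPS. The ratios were 2.40 (1.90 to 3.05) and 1.87 (1.47 to 2.40). Its level in control was lower still, and the ratios to control were 3.75 (2.89 to 4.93) and 2.93 (2.23 to 3.88). Against control, ELF3, EHF and TP63 were at least 2-fold higher in both transfected libraries and none of the 5 was lower, although EHF in the wtOCLN+LPS-labelled library did not pass with a pseudocount of 5 (log2 ratio 0.93). Of all genes, 3.94% and 3.91% were higher and 5.44% and 4.91% lower (5.88% and 5.86% higher, 2.71% and 2.39% lower with TMM).

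GRHL1, at 5.15 and 5.49 CPM, had ratios to LPS of 0.830 (0.611 to 1.13) and 0.885 (0.654 to 1.20). ESRP2 had 0.903 (0.770 to 1.06) and 0.965 (0.826 to 1.13), and the sign of its log2 ratio in the wtOCLN+LPS-labelled library changed with TMM (-0.05 and 0.11). Neither gene was apart from LPS by more than counting error.

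**Figure D3:**
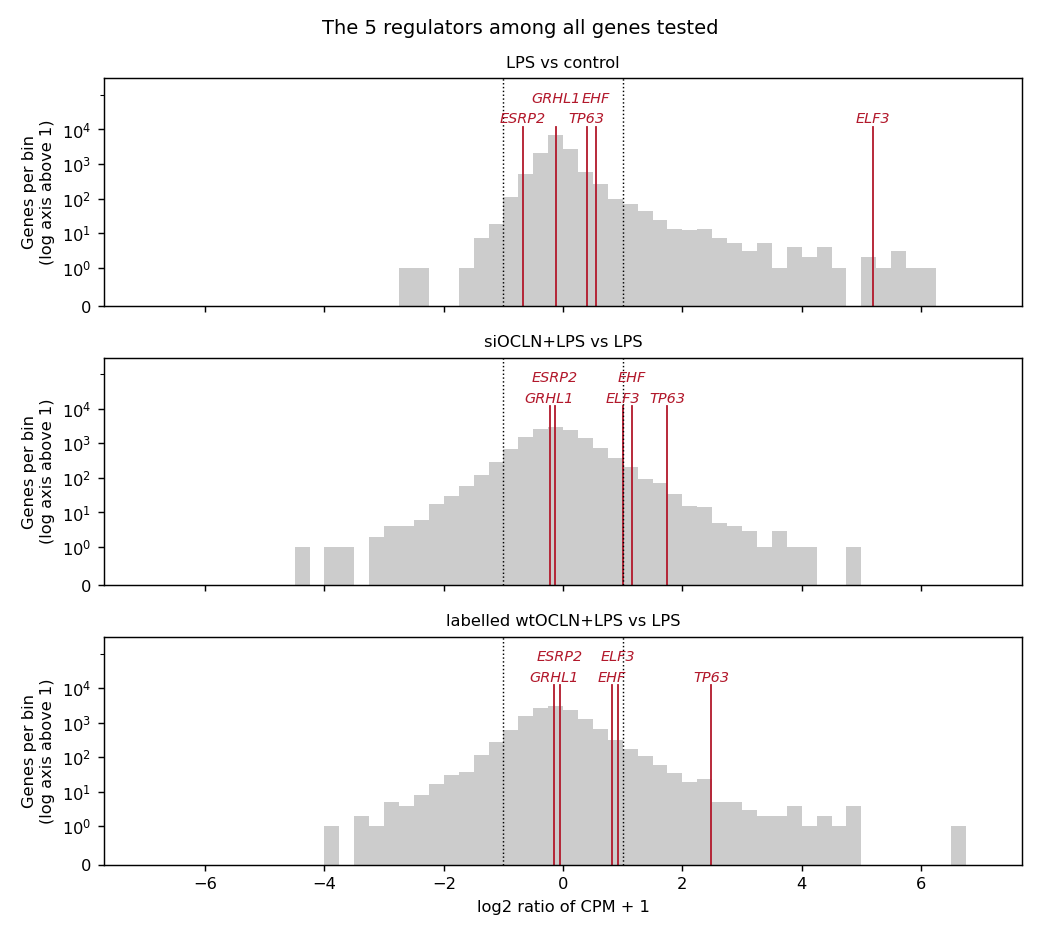
Distribution of log2 ratios of CPM + 1 over all genes tested (grey bars, genes per bin of 0.25, log axis above 1) in 3 comparisons, with the 5 regulators as red lines and the 2-fold thresholds dotted. ELF3 lies in the far right tail for LPS against control, TP63 lies farthest right of the 5 in both transfected libraries, and GRHL1 and ESRP2 stay near the bulk of genes in those libraries.

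Other features moved with the transfected libraries. In LPS against control none of 12 tested interferon-stimulated genes was 2-fold apart. All 14 of the list, chosen with earlier results of these data known, passed 2-fold upward from LPS in both (median log2 ratio 2.60 and 4.14). OCLN was lower in both. Of 10 tested bronchial epithelial markers, 6 passed 2-fold upward in siOCLN+LPS (CDH1, KRT8, KRT18, KRT19, NGFR and TP63 itself) and 5 in the wtOCLN+LPS-labelled library (6 with TMM). Of all genes, 3.32% were higher in each comparison. The markers KRT17, ITGA6, KRT5 and EPCAM did not pass, with log2 ratios of 0.22, 0.01, -0.22 and -0.70 in siOCLN+LPS. In the wtOCLN+LPS-labelled library they had 0.58, 0.03, -0.17 and -0.50. The 8 fibroblast markers summed to 129 CPM for LPS, 171 for siOCLN+LPS and 179 for the wtOCLN+LPS-labelled library, beside 152 for control. COL1A1 was at 62.7, 56.1 and 55.2 CPM in LPS and the transfected libraries, and THY1 at 52.7, 64.5 and 67.8 CPM. Against LPS, PDGFRB was 3.59- and 4.02-fold higher, while COL3A1, DCN and LUM had 0 or 1 count in each library. The 6 leukocyte markers summed to 17.0, 5.04 and 7.71 CPM, nearly all from CD68. Over all 4 libraries the sums were 5.29 to 19.9 CPM for 6 secretory markers, 4.23 to 7.11 for 7 ciliated, 4.52 to 8.56 for 7 alveolar and 0.441 to 1.59 for 5 endothelial markers. The part of these features in the values of the regulators was not tested.

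The transfected libraries can be compared with each other directly, one labelled as given siRNA and the other as given wild-type occludin. None of the 5 measured regulators was 2-fold apart, where 0.0763% of 13109 genes were higher in siOCLN+LPS and 0.29% lower. TP63 was the farthest apart, 1.73-fold lower in siOCLN+LPS (1.46 to 2.05), rank 76 of 13109 from the lowest. EHF was 1.28-fold higher there (1.07 to 1.53). ELF3 was 1.05-fold higher (1.02 to 1.09), rank 4469 of 13109 from the highest. Its log2 ratio was 0.07, where the median of all genes was 0.02. The ratios of GRHL1 (0.939, 0.696 to 1.26) and ESRP2 (0.935, 0.804 to 1.09) included 1. TP63 was thus lower in siOCLN+LPS, while ELF3 lay within the bulk of genes. In the same comparison 10 of 14 interferon-stimulated genes were at least 2-fold lower in siOCLN+LPS (median log2 ratio -1.22).

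The genes whose profiles over the 4 libraries lay closest to ELF3, TP63 and EHF were sought among 11416 genes at 5 CPM or more in any library. Likeness was the root mean square difference of log2(CPM + 1) after each profile was centred on its mean. With 4 libraries, 3 of them given LPS and 2 transfected, a small difference is a description of shape only. Closest to ELF3 were the chemokine genes CXCL1 (0.06) and CCL20 (0.17) and the cytokine gene IL6 (0.28). CXCL1 was at 22.8 CPM in control, 962.0 CPM in LPS, 1758 CPM in siOCLN+LPS and 1721 CPM in the wtOCLN+LPS-labelled library, and its LPS level was 42.1 times that of control, beside 43.3 times for ELF3.

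Closest to TP63 were the interferon-stimulated genes IFIT3 (0.08) and OAS3 (0.13), with the death ligand gene TNFSF10 (0.09) between them. IFIT3 was at 18.3, 23.9, 72.2 and 133.1 CPM in the same order of libraries, and its siOCLN+LPS level was 0.542 of that in the wtOCLN+LPS-labelled library (0.506 to 0.581), beside 0.579 for TP63. Closest to EHF were the noncoding host gene MIR99AHG (0.05), C1orf106 (0.06) and the metallothionein MT1L (0.08), a gene with near-identical relatives whose counts are uncertain. MIR99AHG, at 2.64, 4.11, 10.3 and 8.69 CPM, was like EHF highest in siOCLN+LPS.

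**Figure D4:**
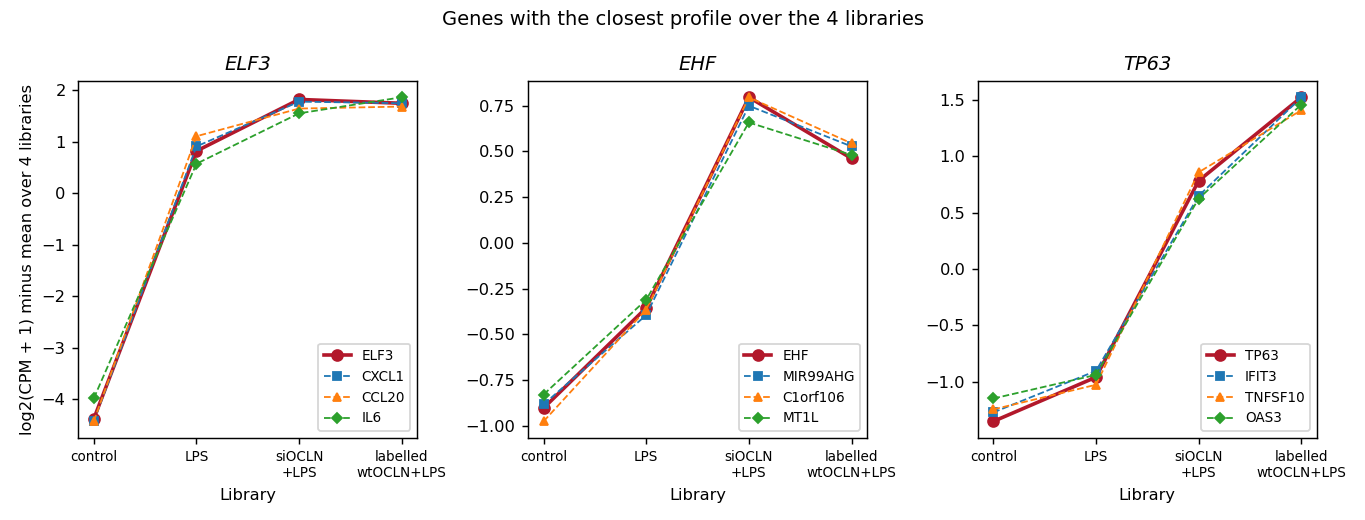
Profiles of ELF3, EHF and TP63 (red) and of the 3 genes closest to each, as log2(CPM + 1) minus the mean over the 4 libraries; each panel has its own vertical scale and lines only join points of a gene. ELF3 and CXCL1 step up from control to LPS, TP63 and IFIT3 step up from LPS to the transfected libraries, and EHF is highest in siOCLN+LPS.

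The kappaB string seen in ELF3 was also present once in each of the 3 genes closest to it. The windows below hold 30 bases each on the plus strand of GRCh38.p14, with the match in capitals, and are shown to compare its letters and its distance from the start.

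ELF3, chr1:202010489-202010518: ctaaaggccaGGAAATCCCCtccatccaat
CXCL1, chr4:73869304-73869333: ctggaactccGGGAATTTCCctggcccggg
CCL20, chr2:227813753-227813782: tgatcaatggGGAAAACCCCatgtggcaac
IL6, chr7:22727117-22727146: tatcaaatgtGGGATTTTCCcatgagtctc

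The match in CXCL1 and in IL6 is on the strand of the gene and that in ELF3 and CCL20 on the opposite strand, where it reads GGGGATTTCC and GGGGTTTTCC. It starts 88 bases before the start of ELF3, 79 before CXCL1 and CCL20 and 73 before IL6. CXCL1, CCL20 and IL6 are all in the list of acute NF-kB response genes, of which 11 of 19 with a window held the string. Whether the string has a part in the ELF3 level was not tested. The interferon response core was in 10 of 11 interferon-stimulated genes with a window and not in the TP63 window. That window does not cover all starts of TP63, and an interferon response of TP63 was not tested.

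Gene lists around the regulators, chosen with earlier results of these data known, place these values. All 22 acute NF-kB response genes passed 2-fold upward in LPS (median log2 ratio 4.14, where the median of all tested genes was -0.09), led by CXCL8 at 6.02 and PTX3 at 5.98. In the transfected libraries 3 and 4 of the 22 were at least 2-fold higher than in LPS and 2 and 1 lower (medians 0.30 and 0.32). With TMM, 5 and 5 were higher, CXCL1 among them. CCL2 was 5.45- and 5.31-fold higher and PTX3 3.87- and 4.64-fold lower, beside ratios of 2.01 and 1.91 for ELF3.

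Of the other ETS-family genes, 1 of 18 tested passed 2-fold upward with LPS: ETS1, a factor of lymphoid cells, at 333.2 and 998.6 CPM (log2 ratio 1.58). None of 18 was at least 2-fold higher than LPS in the transfected libraries, and 4 and 2 were lower (medians -0.51 and -0.44). With TMM scaling 3 and 2 were lower (medians -0.36 and -0.27), and ETV7 was higher in the second. ETV4 was 3.65- and 3.82-fold lower and ETV5 3.27- and 2.65-fold lower, both transcribed in response to FGF and ERK signalling. FLI1 had 60 counts in LPS and 26 and 31 in the transfected libraries, and passed 2-fold only in siOCLN+LPS and without TMM. SPIB had 15 counts for LPS, 0 for siOCLN+LPS and 4 for the wtOCLN+LPS-labelled library. ELF5, the third epithelial factor of the ELF3 and EHF group, had at most 1 count in any library.

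Genes linked to p63 in basal cells had 2 of 23 tested members at least 2-fold higher in LPS against control, LAMB3 among them, and none lower. Of 22 tested in the transfected libraries against LPS, 4 and 3 were at least 2-fold higher and 1 and 1 lower (medians 0.19 and 0.04). Higher were the calcium-binding protein S100A2 (3.30- and 2.36-fold), the basal receptor NGFR (2.81- and 2.35-fold) and the hemidesmosome integrin ITGB4 (2.11- and 2.05-fold), with the Notch ligand JAG2 the fourth in siOCLN+LPS at a log2 ratio of 1.01 (and with TMM in both). The laminin gene LAMB3 was 4.89- and 4.30-fold lower than in LPS, although LPS itself had 6.35 times the control level (5.07 to 8.02). The basal keratin KRT5 had log2 ratios of -0.22 and -0.17. TP73, a relative of TP63, was at 8.58 CPM for LPS, 15.4 for siOCLN+LPS and 14.6 for the wtOCLN+LPS-labelled library, 1.80-fold (1.45 to 2.25) and 1.70-fold (1.37 to 2.14) higher.

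Among 14 other SOX genes, SOX4 was at 151.1 CPM in LPS, 341.7 CPM in siOCLN+LPS and 348.5 CPM in the wtOCLN+LPS-labelled library, 2.26- and 2.31-fold higher. SOX9, a factor of airway progenitors, was 2.15-fold lower (1.80 to 2.59) in the wtOCLN+LPS-labelled library, and was short of 2-fold with TMM. With TMM SOX5 passed upward there, but on 1 count in LPS and 20 in the wtOCLN+LPS-labelled library. In all, 1 of 6 tested was at least 2-fold higher in siOCLN+LPS, and 1 of 7 higher and 1 lower in the wtOCLN+LPS-labelled library. In LPS against control none of 6 tested was 2-fold apart, with SOX12 lowest at a log2 ratio of -0.89. The family was thus present through members other than SOX2.

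Other epithelial and airway lineage factors numbered 26, of which 16 were tested in LPS against control. KLF4, a differentiation factor, was 2.92-fold higher (2.73 to 3.13), and none was 2-fold lower. GATA6, a factor of lung endoderm, had 1.82 times the control level in LPS and was then 2.71-fold lower in siOCLN+LPS than in LPS (2.33 to 3.16). In the wtOCLN+LPS-labelled library SOX9 was the 1 of 16 at least 2-fold lower. OVOL2 had 1 count in siOCLN+LPS and 0 in the other libraries, so that the OVOL family as a whole was near 0. TFCP2L1, a relative of the Grainyhead-like factors, was at 24.6, 39.5 and 33.7 CPM in LPS and the transfected libraries (1.61-fold, 1.41 to 1.84, in siOCLN+LPS).

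The transcription factors of mesenchymal transition, which the OVOL and GRHL genes are known to oppose, were tested for 12 members in LPS against control, of which 1 was at least 2-fold higher and none lower. That gene, TWIST1, was 2.53-fold higher (2.31 to 2.78), at 41.9 and 106.2 CPM. In the transfected libraries 2 of 11 were at least 2-fold lower than in LPS in each: SNAI2 in both (3.01- and 2.76-fold), RUNX2 in siOCLN+LPS (2.14-fold, short of the threshold with TMM) and HMGA2 in the wtOCLN+LPS-labelled library (2.34-fold). None of the 11 was at least 2-fold higher than in LPS, but 3 and 5 had log2 ratios above 0. FOXC2 was 1.63-fold higher in both, TCF4 1.82- and 1.54-fold and SNAI1 1.38- and 1.42-fold. Against control, FOXC2 was 2.62-fold higher in both. The repressors ZEB1 and ZEB2 had log2 ratios to LPS of -0.11 and -0.42 in siOCLN+LPS and 0.04 and -0.43 in the wtOCLN+LPS-labelled library. ZEB1 had 497 to 657 counts in each library, while GRHL2, with which it is known to repress in a mutual loop, had 0 to 2.

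Epithelial differentiation genes, among them known targets of these regulators, had 0 of 21 tested members 2-fold apart in LPS against control. In each transfected library 2 of 21 were at least 2-fold higher than in LPS and none lower (medians 0.11 in both). These were the basement membrane protein LAD1 (4.46-fold, 3.13 to 6.51, and 5.05-fold, 3.56 to 7.36) and CDH1, encoding E-cadherin, at 42.5, 105.1 and 104.5 CPM (2.47- and 2.46-fold). EPCAM, an epithelial adhesion protein, lay the other way from CDH1, with 2.67 CPM for LPS against 1.26 for siOCLN+LPS, a level lower by 2.12-fold (1.22 to 3.77) but short of 2-fold on the log2(CPM + 1) scale. In the wtOCLN+LPS-labelled library it was at 1.60 CPM (1.67-fold lower, 0.993 to 2.83). RAB25 had at most 1 count and AP1M2 had 0.

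On the splicing side, 25 other regulators of epithelial and mesenchymal exons were tested and none was 2-fold apart in LPS against control or in either transfected library against LPS. In siOCLN+LPS HNRNPM, a factor of mesenchymal splicing, was 1.56-fold higher (log2 ratio 0.64) and CELF1 1.51-fold lower (1.45 to 1.57). RBFOX2 and QKI, at 2369 to 3784 and 5580 to 6177 counts, were measured with far more reads than ESRP1. Gene totals of 13 genes with ESRP-regulated exons do not show which exons were used. In LPS against control 1 of 13 was at least 2-fold higher and none lower, in siOCLN+LPS 1 was higher than in LPS and 2 lower, and in the wtOCLN+LPS-labelled library 1 was lower. CD44 in LPS had 2.06 times the control level (1.84 to 2.30) and was 9.96- and 9.18-fold lower in the transfected libraries than in LPS. FGFR2 was at 18.7 CPM in control, 33.2 CPM in LPS, 70.2 CPM in siOCLN+LPS and 67.5 CPM in the wtOCLN+LPS-labelled library, 2.11-fold (1.90 to 2.36) and 2.03-fold (1.82 to 2.27) higher than in LPS; on the log2(CPM + 1) scale the second was just short of 2-fold, and past it with TMM. FNIP1 was 2.18- and 2.01-fold lower, and on that scale only the first passed, and neither with TMM.

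**Figure D5:**
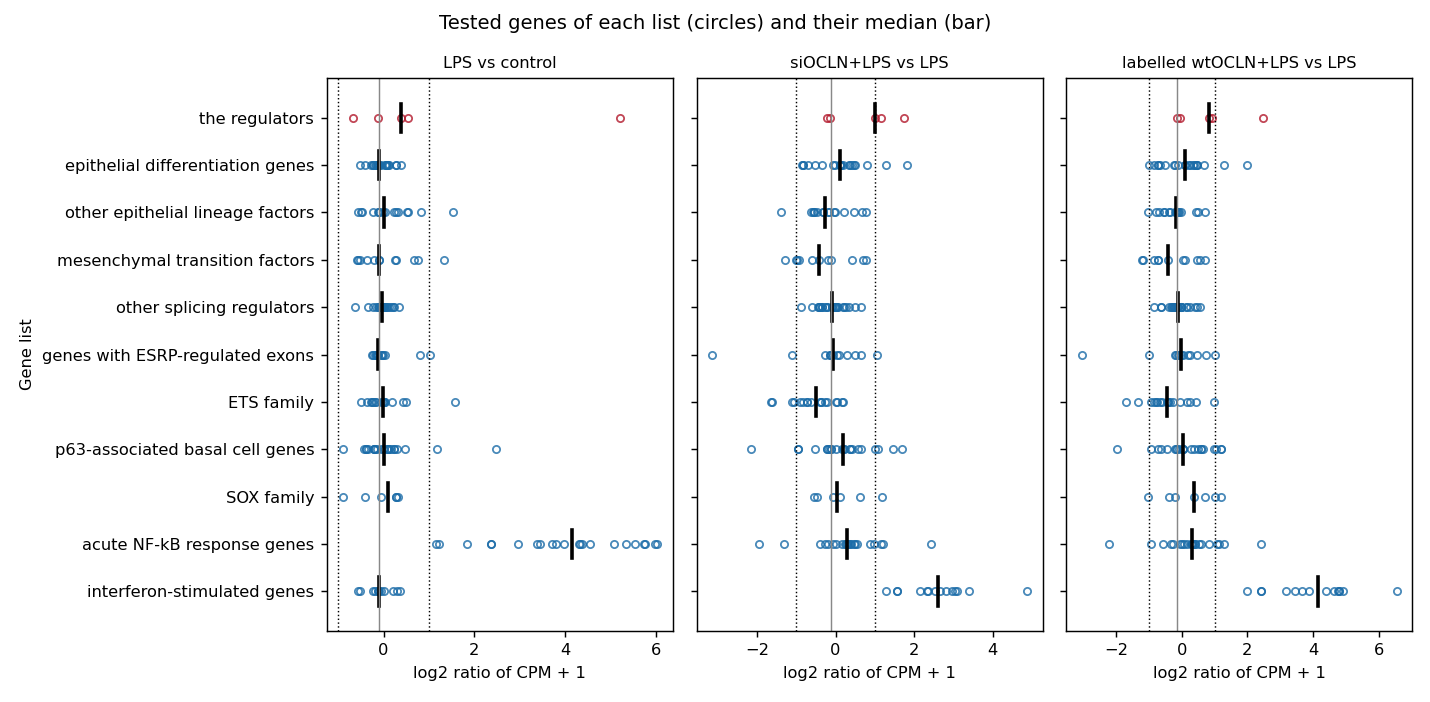
log2 ratio of CPM + 1 of each tested gene (circles) in the regulators (red) and in 10 lists (blue), with list medians as black bars, the median of all tested genes as a grey line and the 2-fold thresholds dotted. All acute NF-kB response genes lie past 2-fold in LPS and all interferon-stimulated genes in the transfected libraries, while the ETS-family medians in the transfected libraries (-0.51 and -0.44) lie below that of all genes.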

How the data were processed

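Each library's deposited table gives whole-number read counts by gene symbol, as made by the authors. The submitters' processing notes name TopHat, Cufflinks and build hg19. Counting tool, strand setting and annotation: not given in the sources used here, so genes with near-identical copies, overlapping or antisense partners are uncertain. A directional library kit was used, per the labels' protocols.

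Counts were scaled to CPM by library total. A gene was tested from 1 CPM in either library, and log2(CPM + 1) ratios of at least 2-fold were called. The pseudocount understates low genes. With no replicates, no edgeR test could be fitted. Folds are CPM ratios without pseudocount. Up to 4 genes with the largest absolute log2 ratio were to be named from each of 10 lists and 7 marker sets. Genes named beyond these, such as KRT5, KRT18, ETV7, SOX5, TFCP2L1, JAG2, ZEB1, RBFOX2, QKI, OVOL2, ELF5, RAB25 and AP1M2, were chosen after their values were seen. Members and lists were chosen with earlier results of these data known. Promoter sequences came from RefSeq (GRCh38.p14) and transcript lengths from GENCODE 29, both on another build than the counts. Some listed genes are not reported here by name. Calls were tested on simulated data, drawn with counting error only and so without variation between libraries. Alternatives were pseudocount, filter, scaling and threshold. Python 3.11.15, NumPy 2.4.6, SciPy 1.17.1, pandas 2.3.3, matplotlib 3.10.9, R 4.3.3 and edgeR 4.0.16 (TMM factors) were used.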

Additional observations from a re-analysis of the deposited data

How the results depend on the processing

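Counts of genes 2-fold apart are given for LPS against control, siOCLN+LPS against LPS, the wtOCLN+LPS-labelled library against LPS, siOCLN+LPS against the wtOCLN+LPS-labelled library, and siOCLN+LPS and the wtOCLN+LPS-labelled library against control, in this order. They were 245, 979, 946, 48, 1274 and 1197. With a pseudocount of 0.1 they were 502, 1539, 1527, 161, 1946 and 1885, and with a pseudocount of 5 they were 136, 415, 427, 22, 552 and 557. By construction a lower threshold gave more, with 846, 3288, 3195, 255, 4141 and 4084 at 1.5-fold, and a higher one fewer, with 94, 228, 236, 10, 311 and 309 at 3-fold. Filters and scalings kept each count within 1.5 times.

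Of the regulators, 2 (ELF3 and, lower, ESRP2) were 1.5-fold apart in LPS against control. At that threshold 3.45% of all genes tested were higher and 2.8% lower. In siOCLN+LPS against LPS, 1 (TP63) remained past the threshold of 3 at a pseudocount of 5 and also 1 (TP63) at 3-fold. Of all genes, 1.67% were higher at a pseudocount of 5 and 0.911% at 3-fold. In the wtOCLN+LPS-labelled library against LPS, 2 (ELF3 and TP63) passed with TMM and 2 with median ratio scaling, and 3 (also EHF) at 1.5-fold. The shares of all genes that were higher in these settings were 4.59%, 4.55% and 8.59%. Between the transfected libraries 1 (TP63) passed at 1.5-fold, lower in siOCLN+LPS, where 1.19% of all genes were lower. Against control, ELF3, EHF and TP63 passed in siOCLN+LPS under every setting tried, whereas in the wtOCLN+LPS-labelled library 2 (ELF3 and TP63, not EHF) passed at a pseudocount of 5 and at 3-fold. In siOCLN+LPS 1.51% (at 3-fold) to 8.91% (at 1.5-fold) of all genes were higher across the settings. In the wtOCLN+LPS-labelled library 2.65% were higher at a pseudocount of 5 and 1.63% at 3-fold. At 1.5-fold ESRP2 also passed, lower, in both transfected libraries, where 21.6% of all genes tested were lower in each. Of 120 alternative log2 ratios of the 5 regulators, 18 left the counting interval of the ratio, and none of a called regulator changed sign. The share of called genes that were higher against LPS was 45.9% (siOCLN+LPS) and 47.4% (wtOCLN+LPS-labelled), and 61.5% and 64.9% with TMM. Against control these shares were 42% and 44.4%, and 68.5% and 71% with TMM. The cause of these shifts was not tested. With 1 library per group no replicate could be left out. No paired analysis was possible because each group has 1 library. Depth limits the 5 regulators under 1 CPM, for which no ratio is given.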
